A study of Arabidopsis thaliana with 8 samples.

Results

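The 43 circadian clock and light receptor genes of Arabidopsis thaliana described here were chosen by function, as named loci. They were taken from the 27444 protein-coding nuclear genes of the RefSeq annotation of the TAIR10.1 genome. They comprise the morning-expressed MYB factors, the pseudo-response regulators, the evening complex, the ZTL family with GI, further clock factors, the phytochromes, the blue light and UV-B receptors, the COP1, SPA and DET1 repressors of light signalling, and the PIF and HY5 transcription factors. Whole-genome bisulfite sequencing on the SOLiD platform had been applied to 8 pools of DNA, each combining DNA of 4 plants harvested whole, without roots, at 25 days of age. CVL39 and CVL125, the recombinant inbred lines used, carry segments of both parental accessions, Ler and Cvi. For each line, 1 ancestral pool and 3 selected pools were made, the latter from populations that had passed 5 generations of selection in dynamic landscape 1, 5 or 6 and then 2 generations without selection. All plants were grown in long days of 16 h light and 8 h dark at 23 °C. Each selected pool was compared with the one ancestral pool of its own line, so the 3 comparisons of a line share their reference.

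Bisulfite treatment turns cytosines into thymines in the reads unless they are methylated. The deposited data are 6 lists, one per selected pool, of differentially methylated cytosines (DMCs), i.e. cytosines whose methylation differed from the ancestral pool with an unadjusted p-value of at most 0.05. A list gives chromosome, strand, position and p-value. Neither reads per cytosine nor methylation levels are in it, nor whether methylation was gained or lost, so the depth is unknown, and a cytosine that is not listed may have been unchanged or may have lacked reads. The study describes these SOLiD reads as a pilot data set of low coverage. The lists held between 7297 and 14074 nuclear DMCs, with the smallest in CVL125 landscape 6. The p-values of positions are the authors' own, and p-values of tests between the lines are named as such. A call is one cytosine in one list, and a position is a distinct cytosine, whichever lists it is in. The spread given is over the 3 selected pools of a line, each 1 pooled library.

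The plant clock is built from transcription factors that repress one another in turn over the day: CCA1 and LHY are expressed in the morning and repress evening genes, the pseudo-response regulators follow through the day, and the evening complex of ELF3, ELF4 and LUX represses at night. Phytochromes sense red and far-red light, cryptochromes, phototropins and the ZTL family sense blue light, and UVR8 senses UV-B. Phytochromes and cryptochromes act largely by restraining the COP1 and SPA ubiquitin ligase and the PIF factors, which together also set growth and the day-length response of flowering. In Arabidopsis, methylation in the CG context is common within the coding sequence of moderately and steadily expressed genes, whereas methylation in the CHG and CHH contexts (H being A, C or T) is mostly found in transposons and repeats.

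Few of the listed cytosines in these genes came back in every selected pool of a line. The windows around these, and around those listed in both lines, are shown because a cytosine listed in every pool of a line, or in both lines, is what the landscapes and the lines have in common. Each was read from the RefSeq copy of the TAIR10 genome (TAIR10.1) on the strand of the listed cytosine, 5′ to 3′, with coordinates counted from 1. The listed cytosine and the guanine after it are in capitals, and each listed cytosine lies in coding sequence, although the SPA3 window runs on into the next intron.
PHYA, chr1:3097599-3097627, minus strand, listed in CVL39 landscapes 1, 5 and 6: gagatggggaggtgCGaagcatgatccag
ZTL, chr5:23244156-23244184, plus strand, listed in CVL39 landscapes 1, 5 and 6: ttgtgggaggaacaCGagcgatagtgcta
TIC, chr3:7918683-7918711, minus strand, listed in CVL39 landscapes 1, 5 and 6: tggatctgaagtggCGgtgacagctcccg
TIC, chr3:7918670-7918698, minus strand, listed in CVL39 landscape 6 and CVL125 landscape 5: gcggtgacagctccCGtgactggaacagc
SPA3, chr3:5169605-5169633, minus strand, listed in CVL125 landscapes 1, 5 and 6: ggctcagagactaaCGaggtaaaggcttg
RVE1, chr5:5690623-5690651, minus strand, listed in CVL39 landscapes 1 and 6 and in CVL125 landscape 5: atcaaacactggttCGgtggatgatacgg
The windows of TIC overlap, their listed cytosines being 13 bp apart. Outside the gene bodies, the densest group of listed cytosines lay upstream of PHOT2 in a run of CT dinucleotides, of which the following stretch carries 13 listed positions, all in the CHH context and shown as capitals.
PHOT2 upstream, chr5:23523475-23523504, minus strand: tCtCtCtCtCtCtCtCtCtCtctCtctCtC

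DMCs were found in the gene bodies of 27 of the 43 genes, and 16 genes had none in any list. Of all protein-coding genes, 37.6% had at least 1 DMC in the 6 lists, but the clock and light genes are long, with a median of 3588 bp against 2078 bp, and long genes offer more cytosines. Among other genes within 10% of each gene's length, 41.7% on average had no DMC, against 37.2% of the 43, so the share of genes without a DMC was close to that of genes of like length. The 27 genes held 103 calls at 79 positions. Of these calls, 91 were CG, 2 were CHG and 10 were CHH. The calls were unevenly spread: 9 genes held 1 call, 9 held 2 to 4, and 9 held 5 or more, and the 5 genes with the most calls (TIC, ZTL, PHYA, PHYD and RVE1) accounted for 47 of the 103, or 45.6%.

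The list-by-list counts differed between the lines. In CVL39 the 43 genes held 21 calls in landscape 1, 21 in landscape 5 and 22 in landscape 6. In CVL125 they held 13, 20 and 6, so every CVL39 count was above every CVL125 count. The lists themselves differ in size, and the counts were therefore set against genes of like length in the same list. These held, summed over the 43 genes, means of 14.3, 16.7 and 16.5 calls in CVL39 and 17.1, 21.0 and 7.81 in CVL125. Relative to genes of like length, the clock and light genes thus had 1.46, 1.26 and 1.34 times the calls in the CVL39 lists, and 0.760, 0.952 and 0.768 times in those of CVL125. As means this is 1.35 ± 0.10 in CVL39 and 0.827 ± 0.109 in CVL125 (SD, n = 3). All CVL39 ratios lay above 1 and all CVL125 ratios below it, but the CVL125 mean did not stay below 1 under other settings. At p-values of at most 0.005 the means were 2.08 in CVL39 and 1.07 in CVL125, and with CG DMCs alone set against genes of like CG number they were 1.55 and 1.01. Part of the difference lay in PHYA: without it the means were 1.18 ± 0.06 and 0.855 ± 0.114, and the lists of the lines still did not overlap. Because the genes were picked with earlier results of these data known, no test was made of the ratios.

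**Figure D1:**
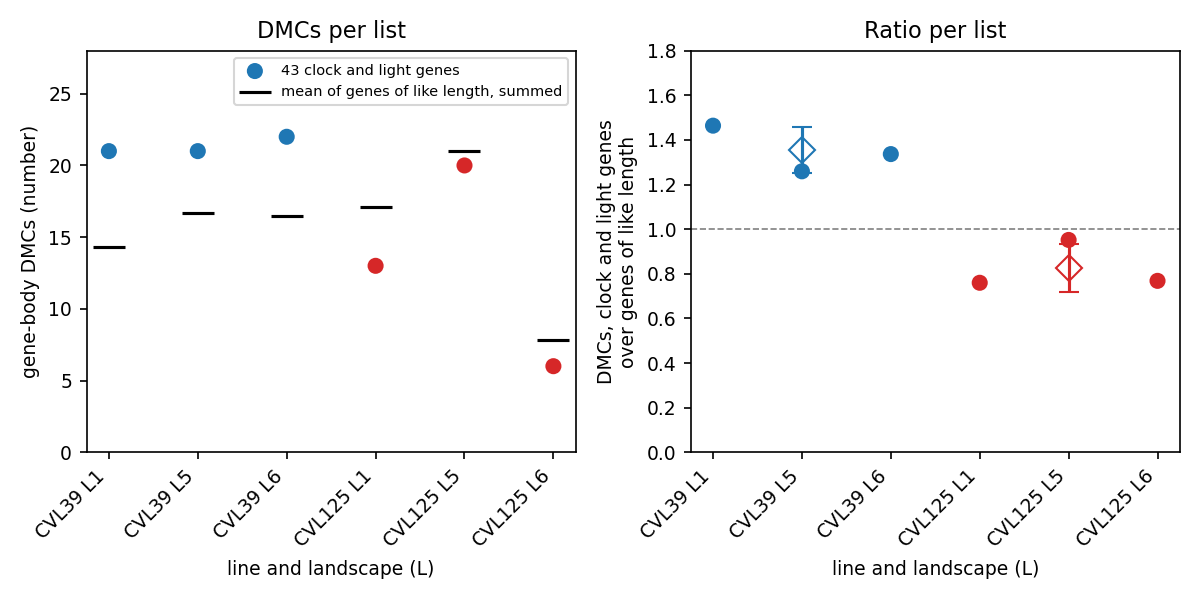
Left, gene-body DMCs of the 43 clock and light genes in each list (points, blue for CVL39 and red for CVL125) beside the summed mean of genes of like length in the same list (black bars). Right, the ratio of the pair for each list (points), with the mean and SD of the 3 lists of a line (diamonds and error bars) and a dashed line at 1; the CVL39 ratios run from 1.26 to 1.46 and the CVL125 ratios from 0.760 to 0.952.

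Counted by gene, 24 of the 43 had a DMC in at least 1 CVL39 list, where 26.2% of all protein-coding genes did, and 15 had one in at least 1 CVL125 list, where 25% of all did. These shares of all genes are not matched for length, and the 43 genes are longer, so a higher share among them cannot be read as enrichment. DMCs in both lines were found in 12 genes, in CVL39 alone in 12, and in CVL125 alone in 3. The same split was not made for all protein-coding genes or for genes of like length, so these 3 numbers have no background here. The genes with CVL39 calls alone were LCL1, AT5G52660, TOC1, PRR3, PRR7, PRR9, ELF3, CHE, PHYA, CRY1, PHOT2 and PIF1, and those with CVL125 calls alone were PHYC, PHYE and PHOT1, each with 1 call. Per list, 32.6%, 32.6% and 27.9% of the 43 genes had a DMC in CVL39 landscapes 1, 5 and 6, against 22.0%, 25.2% and 25.4% of genes of like length and 13%, 14.9% and 15.1% of all protein-coding genes. In CVL125 the shares were 23.3%, 30.2% and 11.6%, against 24.1%, 28.9% and 13.8% of genes of like length and 14.3%, 17% and 8.17% of all. The share was therefore above that of genes of like length in each CVL39 list, but in CVL39 landscape 6 the margin was small and near that by which CVL125 landscape 6 fell short. In CVL125 the share lay on either side of that of genes of like length.

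**Figure D2:**
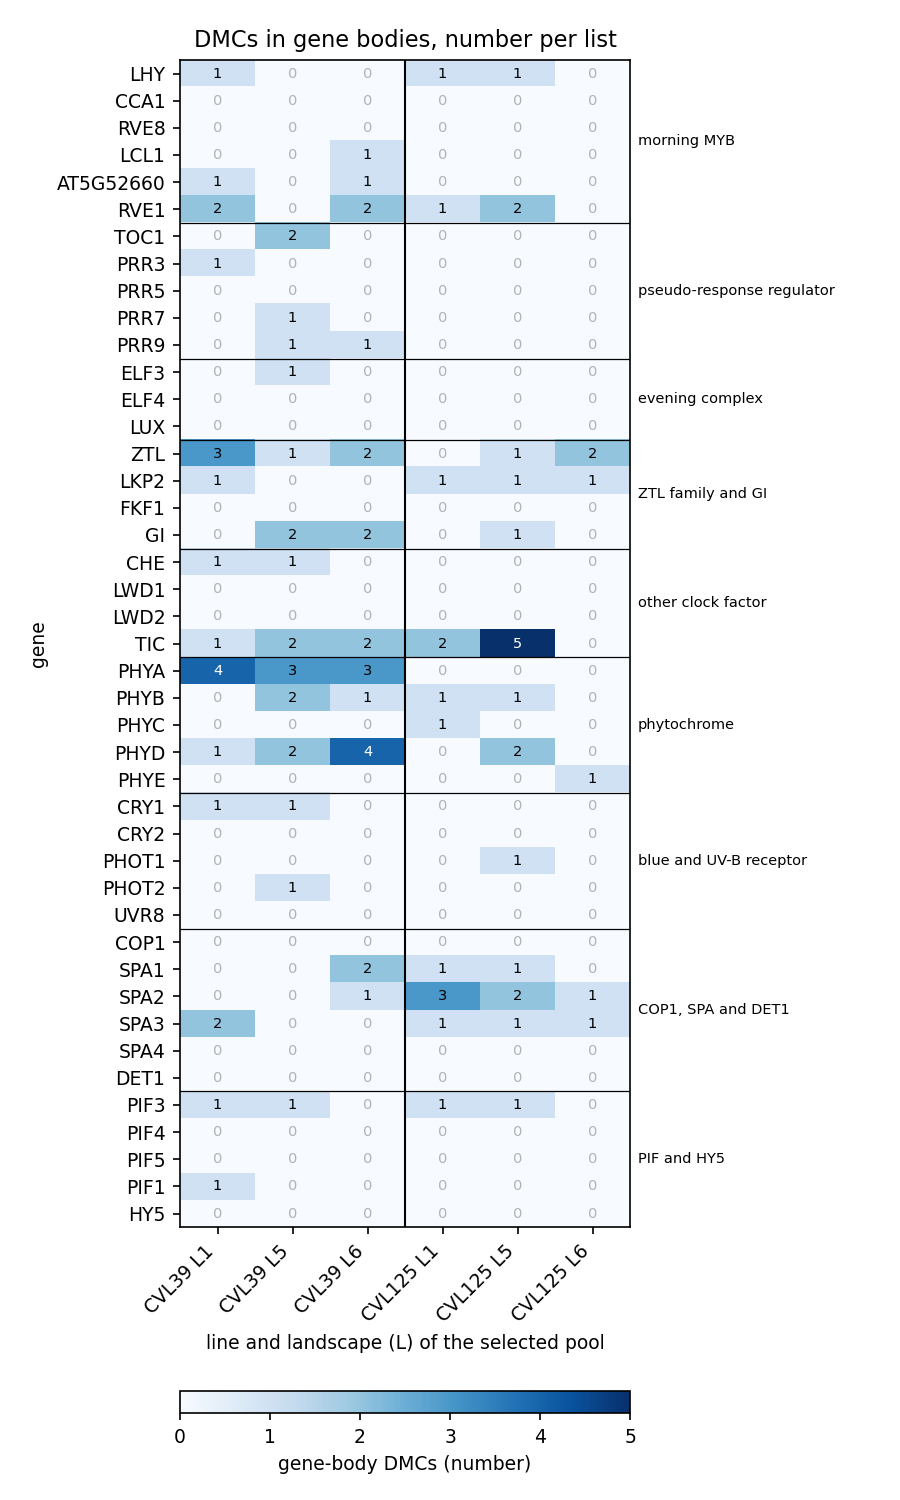
Number of gene-body DMCs (colour and digit) of each of the 43 genes (rows, grouped by role) in each of the 6 lists (columns, L being the landscape). PHYA has 4, 3 and 3 DMCs in CVL39 and 0 in all CVL125 lists, the highest single count is 5 (TIC in CVL125 landscape 5), and 16 rows hold only zeros.

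Among the phytochromes, all 5 genes had a DMC, where 24.6% to 35.9% of other genes of their lengths had none. Together they held 26 calls at 21 positions, where genes of like length held 13.9 calls (ratio 1.88). The ratio was not shared by all: PHYA, PHYB and PHYD lay above the mean of genes of their length. PHYC and PHYE, with 1 call each, lay below it (means of 2.46 and 2.62). PHYA encodes the light-labile phytochrome that perceives far-red light. It had 4, 3 and 3 DMCs in CVL39 landscapes 1, 5 and 6 and 0, 0 and 0 in CVL125. PHYA (AT1G09570, chr1:3095160-3100819, minus strand) was the only one of the 43 genes whose counts did not overlap between the lines in either direction. Such a pattern was found with CVL39 above in 4.52%, and with CVL125 above in 3.24%, of the 10332 genes with at least 1 DMC, so 1 gene of the 27 with a DMC is near that background. The difference of the means was 3.33 calls against 0, with p = 0.1 in a two-sided exact permutation test of 3 against 3 lists, which is the smallest p this design allows (adjusted p = 1 over the 10332 genes). Of the 781 other genes within 10% of its length, 4.48% had at least as many calls as PHYA over the 6 lists. Over the CVL39 lists alone, 0.768% had at least as many as its 10, and their mean was 1.5. These lists were singled out because all calls of PHYA lie there, so this share is descriptive and no test.

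The PHYA calls fell on 6 positions, all CG and all in coding sequence. Position 3097613 on the minus strand was in all CVL39 lists, with p-values of 0.000583, 0.00126 and 0.000583 in landscapes 1, 5 and 6, and the cytosine on the other strand of the same CG, 3097612, was in the list of landscape 5 as well (p-value 0.0476). The CG at 3099159 and 3099160 was also listed on both strands: the plus strand in landscapes 1 and 5 (p-values of 0.0014 and 0.0005) and the minus strand in landscape 1 (p-value 8.08e-05). Position 3096374 was in landscapes 1 and 6, and 3096651 in landscape 6 alone. The calls of PHYA thus came from 4 separate CG sites of the gene rather than from a single cytosine. The gene holds 246 CG cytosines, counting both strands.

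PHYB (AT2G18790), which encodes the main red light receptor of light-grown plants, had 0, 2 and 1 DMCs in CVL39 and 1, 1 and 0 in CVL125. Its 5 positions were all CG in coding sequence, each in a single list, and 2 of them (8142745 and 8142746) were the strands of the same CG in CVL39 landscape 5. The lists of the lines overlapped. PHYD (AT4G16250), the close paralogue of PHYB, had 1, 2 and 4 DMCs in CVL39 and 0, 2 and 0 in CVL125, at 8 positions (p = 0.3, adjusted p = 1, exact permutation test), so the lines overlapped at 2. Of other genes of its length, 5.99% had at least as many calls as its 9 in the 6 lists. Position 9198432 of PHYD was in CVL39 landscapes 5 and 6 (p-values of 0.00476 and 0.00042), and the strands of the CG at 9196146 and 9196147 were listed in landscapes 6 and 1, respectively. PHYC (AT5G35840) and PHYE (AT4G18130), which encode further light-stable phytochromes, had 1 call each, in CVL125 landscape 1 and CVL125 landscape 6.

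The ZTL family encodes F-box proteins with a blue-light sensing domain that target clock proteins for degradation, and GI is the protein that stabilises ZTL. These 4 genes held 18 calls at 13 positions, against 8.00 calls in genes of like length (ratio 2.25). ZTL (AT5G57360, chr5:23241320-23244590, plus strand) had 3, 1 and 2 DMCs in CVL39 and 0, 1 and 2 in CVL125 (p = 0.5, adjusted p = 1, exact permutation test), so that the lines overlapped. Position 23244170, shown above, was in every CVL39 list with p-values of 0.00303, 0.000583 and 0.00303, whereas none of the CVL125 lists had it. A second position, 23243793, was in CVL39 landscapes 1 and 6. All 6 ZTL positions were CG in coding sequence and lay in the latter part of the gene, at least 1782 bp from its start in a gene of 3271 bp. Of other genes of its length, 2.97% had at least as many calls as ZTL.

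LKP2 (AT2G18915), the homologue of ZTL, had 1, 0 and 0 DMCs in CVL39 and 1, 1 and 1 in CVL125. Position 8195946 accounted for the calls of CVL125 landscapes 1 and 5 (p-values of 0.000155 and 0.000411), and the call of landscape 6 was a separate CHH cytosine. GI (AT1G22770) had 0, 2 and 2 DMCs in CVL39 and 0, 1 and 0 in CVL125. Its position 8065108, in CVL39 landscapes 5 and 6 with a p-value of 0.00226 in each, was 1 of only 2 non-CG positions among the 43 genes that were in more than 1 list. FKF1 (AT1G68050), a further member of the family, which promotes flowering in long days, had no DMC.

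Of the further clock factors, TIC (AT3G22380, chr3:7912905-7919707, plus strand), a nuclear regulator of clock phase that acts near dawn, had the most calls of all 43 genes. It had 1, 2 and 2 DMCs in CVL39 and 2, 5 and 0 in CVL125 (p = 0.9, adjusted p = 1, exact permutation test), so the lines overlapped. Its 9 positions lay in coding sequence between 3202 and 5929 bp from the start of the 6803 bp gene. Position 7918697 was in all CVL39 lists, with p-values of 0.00699, 0.00202 and 3.18e-09 in landscapes 1, 5 and 6. The last of these was the lowest p-value listed in the 43 genes. Position 7918684, 13 bp away, was in CVL39 landscape 6 (p-value 0.0333) and CVL125 landscape 5 (p-value 0.0476). TIC is long and rich in CG, with 452 CG cytosines. Of genes of its length, 2.52% had at least as many calls, but these genes were not matched for CG number. CHE (AT5G08330), a TCP factor that represses CCA1, had a CHH position in its 5′ untranslated region, in CVL39 landscapes 1 and 5. LWD1 (AT1G12910) and LWD2 (AT3G26640), WD-repeat proteins that activate clock genes, had no DMC.

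**Figure D3:**
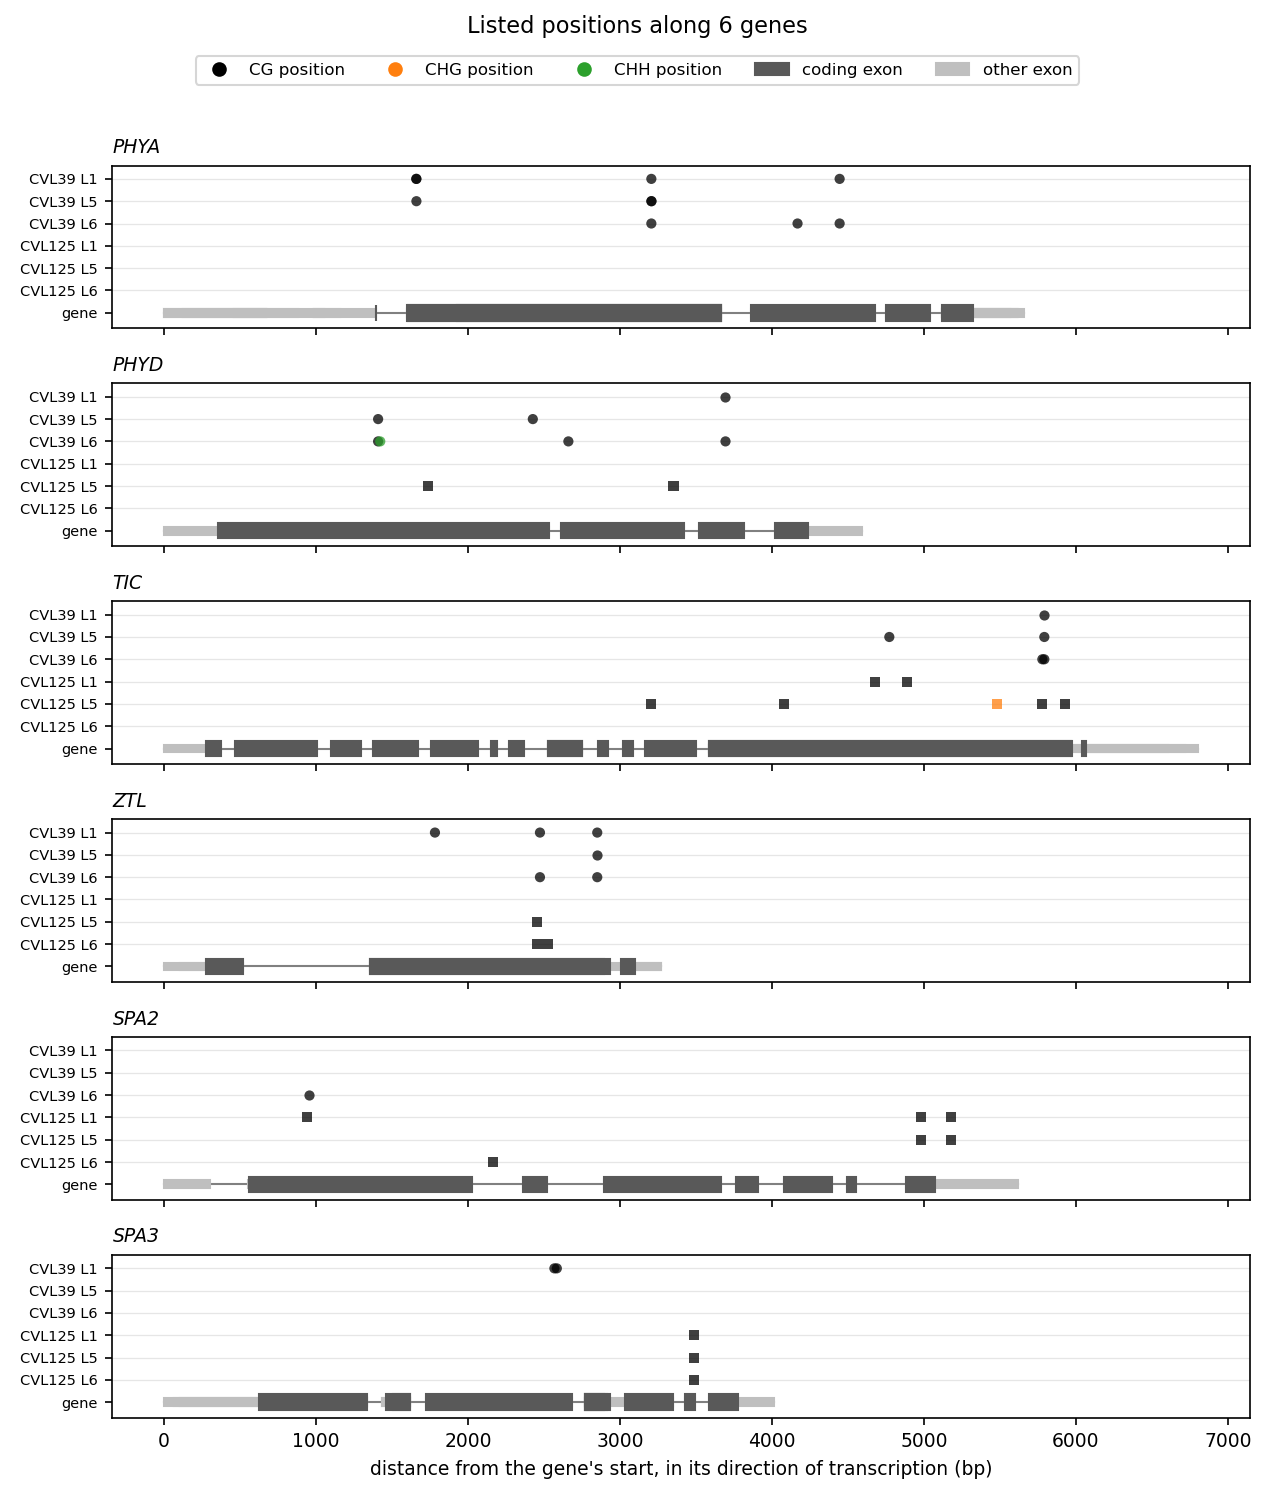
Positions of the gene-body DMCs along PHYA, PHYD, ZTL, TIC, SPA2 and SPA3, in bp from the start of each gene in the direction of transcription, with coding exons (dark), other exons (light) and introns (line) drawn to scale. Each marker is a listed cytosine, set in the row of its list (circles CVL39, squares CVL125) and coloured by context. PHYA carries markers in CVL39 rows only, and markers stacked at the same distance are positions in several lists, such as that of PHYA 3206 bp and that of SPA3 3486 bp from the start.

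The morning MYB factors held 13 calls at 10 positions in 4 of 6 genes, close to the 11.8 calls of genes of like length (ratio 1.10). CCA1 (AT2G46830) had no DMC in any list. LHY (AT1G01060) had 1, 0 and 0 DMCs in CVL39 and 1, 1 and 0 in CVL125, and none of these was CG: 2 CHH positions and 1 CHG position lay in the 5′ untranslated region, between 105 and 142 bp from the start of the gene, each in a different list. The 3 cytosines lay within 37 bp of each other on the minus strand, and their p-values ran from 0.0258 to 0.0333. RVE1 (AT5G17300), which connects the clock to auxin, had 2, 0 and 2 DMCs in CVL39 and 1, 2 and 0 in CVL125. Position 5690637 of RVE1 was in CVL39 landscapes 1 and 6 and CVL125 landscape 5, with a p-value of 0.0152 in each, and position 5691277 was in CVL39 landscapes 1 and 6. The strands of another CG, at 5691381 and 5691382, were listed in CVL125 landscapes 5 and 1. AT5G52660, a further gene of this family, had a CG call in CVL39 landscapes 1 and 6, at different positions, and LCL1 (AT5G02840) had 1 call, in its 3′ untranslated region. RVE8 (AT3G09600), which activates evening genes in the afternoon, had none.

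The pseudo-response regulators held 6 calls in 4 of 5 genes, all CG in coding sequence, against 9.64 in genes of like length (ratio 0.622). All 6 calls were in CVL39 lists: 2 in TOC1 (AT5G61380), an evening repressor of CCA1 and LHY, in landscape 5, 1 each in PRR3 (AT5G60100, landscape 1) and PRR7 (AT5G02810, landscape 5), and 1 position of PRR9 (AT2G46790) in landscapes 5 and 6. PRR5 (AT5G24470) had none. The evening complex held a single call, a CHH cytosine of ELF3 (AT2G25930) in CVL39 landscape 5 (p-value 0.0357), against 5.27 in genes of like length, and ELF4 (AT2G40080) and LUX (AT3G46640) had none. ELF4 is the shortest of the 43 genes with 660 bp, and 88.1% of genes of its length had no DMC.

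The blue light and UV-B receptors had the fewest calls for their length after the evening complex: 4 calls at 4 positions in 5 genes, against 16.1 in genes of like length (ratio 0.249). CRY1 (AT4G08920), the cryptochrome that acts in strong blue light, had 1, 1 and 0 DMCs in CVL39 at separate positions and none in CVL125. PHOT1 (AT3G45780), a phototropin that directs growth towards light, had 1 call, in CVL125 landscape 5, and PHOT2 (AT5G58140), which moves chloroplasts away from strong light, had 1, in CVL39 landscape 5. These are the longest genes of the set with 7490 and 9287 bp, and 88.7% and 94.0% of other genes of their length had at least as many calls. CRY2 (AT1G04400), the light-labile cryptochrome, and UVR8 (AT5G63860), the UV-B receptor, had none, and 25.3% of genes of the length of UVR8 had none either. These ratios describe the gene groups and were not tested.

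The COP1, SPA and DET1 group held 16 calls at 11 positions, close to the 15.2 of genes of like length (ratio 1.05), and all were in SPA1, SPA2 and SPA3. SPA proteins are partners of COP1 in the complex that degrades light-signalling factors in the dark. SPA2 (AT4G11110) had 0, 0 and 1 DMCs in CVL39 and 3, 2 and 1 in CVL125 (p = 0.2, adjusted p = 1, exact permutation test), with CVL39 landscape 6 and CVL125 landscape 6 equal at 1. Relative to the size of each list the CVL125 counts of SPA2 lay above all CVL39 counts. This rests on 1 call in each landscape 6 list, that of CVL125 being the smallest list. The share of all genes with such a pattern is not given here, so it cannot be read as a separation of the lines. Position 6776588 in coding sequence was in CVL125 landscapes 1 and 5 (p-values of 0.000777 and 0.0005), as was 6776782 in the 3′ untranslated region (p-values of 0.00169 and 0.0152). Of other genes of its length, 11.3% had at least as many calls over the 6 lists, 54.4% over the CVL39 lists and 4.27% over the CVL125 lists. The shares by line describe where the calls of SPA2 lie and are no test.

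SPA3 (AT3G15354, chr3:5169095-5173105, minus strand) had 2, 0 and 0 DMCs in CVL39 and 1, 1 and 1 in CVL125. All CVL125 calls were position 5169619, with p-values of 0.00126, 0.00303 and 0.00303, which made SPA3 the only one of the 43 genes with a cytosine in every CVL125 list. The CVL39 calls were 16 bp apart at 5170521 and 5170537, both in landscape 1. SPA1 (AT2G46340) had 0, 0 and 2 DMCs in CVL39 and 1, 1 and 0 in CVL125, the CVL125 calls being the same cytosine (19022654) in landscapes 1 and 5. COP1 (AT2G32950), the ligase itself, SPA4 (AT1G53090) and DET1 (AT4G10180), a further repressor of light responses, had none. Of genes of the length of COP1, 24.2% had none.

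The PIF and HY5 factors held 5 calls, against 8.06 in genes of like length (ratio 0.621). PIF3 (AT1G09530), a basic helix-loop-helix factor that binds active phytochrome, had 1, 1 and 0 DMCs in CVL39, at the same cytosine (3078549), and 1, 1 and 0 in CVL125, at separate ones. PIF1 (AT2G20180), which represses seed germination in the dark, had 1 CHH call in its 3′ untranslated region. PIF4 (AT2G43010) and PIF5 (AT3G59060), which promote elongation in shade and warmth, and HY5 (AT5G11260), the factor that promotes photomorphogenesis, had none. PIF4 lies in a part of chromosome 2 that is rich in CVL125 DMCs: of the 59 other protein-coding genes within 100 kb of it (chr2:17786101-17989087), 24 had a CVL125 CG DMC, i.e. 40.7% against 21.1% elsewhere, and all 4 of those within 10% of its length had one. PIF4 itself had none in the body or within 1 kb of it in any list. This neighbourhood was looked at because the density of DMCs there was already known. In CVL125 the study's methods also describe a stretch of this chromosome that was heterozygous for Ler and Cvi, with the same contribution of each genotype in the original seed and the selected populations. Its coordinates are not given in the sources used here, and its part in the DMCs near PIF4 was not tested.

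The genes without a gene-body DMC in any list were therefore CCA1, RVE8, PRR5, ELF4, LUX, FKF1, LWD1, LWD2, CRY2, UVR8, COP1, SPA4, DET1, PIF4, PIF5 and HY5. They were shorter, with a median of 2918.5 bp against 4037 bp for the 27 genes with a DMC, and none was longer than 5729 bp.

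Recurrence across landscapes was the exception. Of the 79 positions, 60 were in 1 list and 19 in more than 1. In CVL39, 13 of 48 positions were in at least 2 lists, i.e. 27.1% against 20.3% in other protein-coding genes, and in CVL125 5 of 33 were, i.e. 15.2% against 22.1%. Counted by gene, 9 of the 43 had such a position in CVL39 and 4 in CVL125, where 8.11% and 7.58% of all protein-coding genes did. A position in all 3 lists of CVL39 was found in 3 genes (PHYA, TIC and ZTL), with a background of 1.83% of genes, and in all 3 lists of CVL125 in 1 gene (SPA3), with a background of 1.24%. A position in both lines was found in 2 genes (TIC and RVE1), with a background of 2.11%. These gene shares are over all protein-coding genes, whose median length is 2078 bp against 3588 bp for the 43. They were not matched for length, so a higher share among the longer genes cannot be read as enrichment. Since the 3 lists of a line were compared with the same ancestral pool, a position in all 3 is not 3 independent observations, and the part of the shared pool in these counts was not tested.

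The calls were concentrated in coding sequence. Of the 91 CG calls, 87 (95.6%) lay in coding sequence, 3 in untranslated regions and 1 in an intron, whereas the CG cytosines of the same genes were divided as 68.4%, 19.3% and 12.2%. Other protein-coding genes showed the same order with 89.0%, 3.71% and 7.25% of CG calls and a like division of their cytosines (68.6%, 16.9% and 14.5%). By list, 98.3 ± 2.89% of the CG calls of the 43 genes lay in coding sequence in CVL39 and 88.7 ± 7.66% in CVL125 (SD, n = 3). The 10 non-CG positions, found in 8 genes, were divided evenly between coding sequence (5) and untranslated regions (5).

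**Figure D4:**
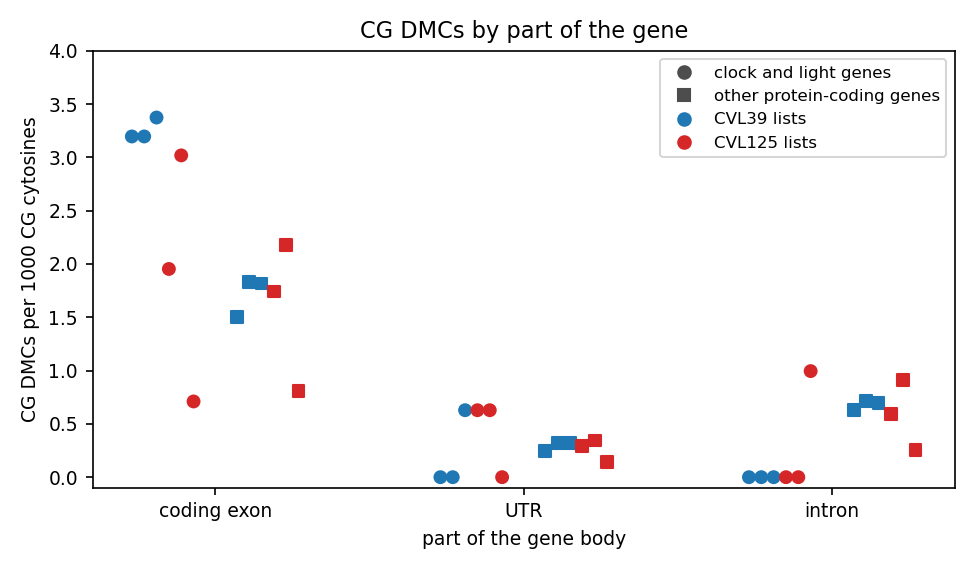
CG DMCs per 1000 CG cytosines (vertical axis) in coding exons, untranslated regions (UTR) and introns, one marker per list, for the 43 clock and light genes (circles) and other protein-coding genes (squares), with CVL39 in blue and CVL125 in red, and landscapes 1, 5 and 6 from left to right. In coding exons the CVL39 circles lie at 3.20, 3.20 and 3.37, above the other genes, which reach 1.83, while the CVL125 circles spread from 0.710 to 3.02 around their other genes at 0.810 to 2.18.

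Per 1000 CG cytosines of the gene bodies, the 43 genes had 2.19, 2.19 and 2.43 CG DMCs in CVL39 and 1.46, 2.19 and 0.608 in CVL125. Other protein-coding genes had 1.16, 1.41 and 1.40 in CVL39 and 1.33, 1.68 and 0.617 in CVL125. As a ratio of these densities, this gave 1.72 ± 0.17 for CVL39 and 1.13 ± 0.16 for CVL125 (SD, n = 3), and every CVL39 ratio (1.55 to 1.88) was above every CVL125 ratio (0.985 to 1.30). CG made up more of the calls than in other genes in each list, from 83.3% to 92.3% against 70.0% to 77.6%. Along the genes, CG positions were rare near the start: 3 of 69 lay in the first 20% of the gene (4.35%), as in other genes (4.89%), and the median position was 68.8% of the way along against 63.8%. The p-values listed in the 43 genes were lower than elsewhere, with a median of 0.00903 against 0.0175, and 38.8% against 25.4% were at most 0.005. Whether this comes with more reads or with larger differences cannot be told apart, since neither is in the lists. The p-values were also compared over all contexts together, and the part of the larger CG share in their difference was not tested. The other strand of the same CG was in the same list for 6 of 91 CG calls (6.59%), against 4.06% in other genes.

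Within 1 kb of the gene bodies, 5 of the 43 genes had a DMC, where 23.2% of all protein-coding genes did. The flanks held 0, 6 and 4 calls in CVL39 and 1, 14 and 2 in CVL125, and genes of like length held 3.76, 4.70 and 4.68 and 4.64, 5.56 and 2.24. Of these 27 calls, 19 at 16 positions lay upstream of PHOT2. Most of the remaining positions were in neighbouring genes. Position 1189682 upstream of CRY2 lay in coding sequence of c-NAD-MDH1, a malate dehydrogenase gene, and was in CVL39 landscapes 5 and 6 (p-value 0.00699 in each). Downstream of SPA3, 5168613 and 5168644 lay in coding sequence of AT3G15350, and 9200411 upstream of PHYD lay in coding sequence of AT4G16260. Position 6346137 upstream of DET1 lay in no annotated protein-coding gene, and genes of other kinds were not looked at. Flank calls outside PHOT2 thus mostly belonged to the bodies of adjacent genes.

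The PHOT2 flank stood apart. Its 16 positions were all CHH on the minus strand, between 322 and 363 bp upstream of the annotated start, and the counts were 0, 4 and 1 in CVL39 and 0, 13 and 1 in CVL125. A run of CT dinucleotides of 78 bp (chr5:23523470-23523547) held 14 of the positions, part of which is printed above. The run also lies within an intron of the neighbouring gene ROS3 (AT5G58130), which encodes an RNA-binding protein needed for active DNA demethylation. CT runs hold 0.305% of the CHH cytosines of the nuclear genome, and none of the gene-body positions of the 43 genes lay in one. In CVL125 landscape 5 the p-values ranged down to 0.00182. The run reaches to 278 bp upstream of PHOT2, but no listed cytosine lay nearer than 322 bp, so part of the run held none. Most of the listed cytosines in the run lie 2 bp from the next and may share reads, so they are not independent observations. The part of read alignment within the repeat was not tested.

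**Figure D5:**
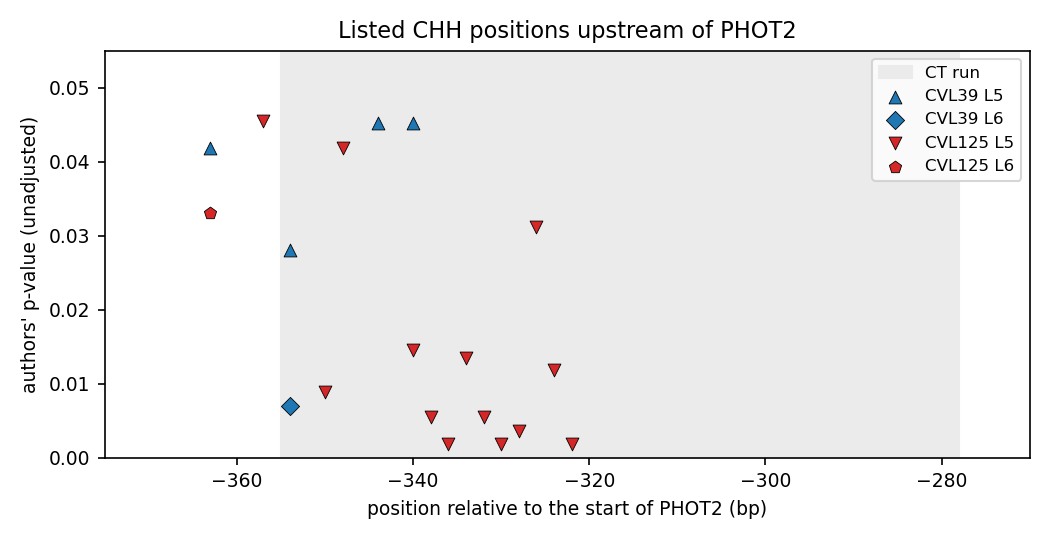
Listed CHH cytosines upstream of PHOT2 by position relative to its annotated start (bp, horizontal axis) and by the authors' unadjusted p-value (vertical axis), with a marker shape for each list that has any and the run of CT dinucleotides shaded. CVL125 landscape 5 (red triangles pointing down) holds 13 of the 19 calls, and no call lies nearer to the start than 322 bp.

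A second list of 28 genes of the same pathways, among them LNK1 and LNK2, further RVE genes, PIF7, HFR1, FHY1, FHY3, FAR1, RUP1, RUP2, NPH3, DDB1A and CDF1, showed fewer DMCs. Only 3 of the 28 (10.7%) had one in their bodies, against the 37.6% of all protein-coding genes, and their 14 calls compared with 39.8 in genes of like length. DDB1A (AT4G05420), which encodes an adaptor of the ubiquitin ligases in which COP1 and DET1 act, had 0, 3 and 3 DMCs in CVL39 and 2, 2 and 0 in CVL125. FHY3 (AT3G22170), a transcription factor that activates the genes for nuclear import of phytochrome A, had 1, 1 and 1 in CVL39 and 0 in each CVL125 list, all at the same cytosine. FHY3 was the only gene of this list whose counts did not overlap between the lines. Such a pattern, with CVL39 above, was found in 4.52% of the 10332 genes with at least 1 DMC. In FHY3 it rests on 1 call per CVL39 list. FAR1, the homologue of FHY3, had 1 call, in CVL39 landscape 1.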

How the data were processed

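The authors' aligner for the SOLiD bisulfite reads was SOCS 2.1 (at most 4 mismatches), run on parental sequences derived from TAIR10, as given for the reference construction; whether the lists rest on the same alignment is not given in the sources used here. They deposited for each selected pool the cytosines that differed from the ancestral pool of its line, with unadjusted p-values of at most 0.05. The test and its coverage minimum are not given in the sources used here, and no read depth is in the lists. Of 71531 listed rows, 591 on organelle genomes and 376 that did not fall on a cytosine of TAIR10 (positions counted from 0) were left out. Gene bodies, coding sequence and untranslated regions were those of the RefSeq annotation of TAIR10.1, with any transcript of a gene counted. Parental sequence variants were not considered. Genes of like length were non-member protein-coding genes within 10% of a member's length (134 to 3803 genes). A CT run was at least 4 CT dinucleotides. For all 10332 protein-coding genes with a DMC, counts of the 3 CVL39 and 3 CVL125 lists were compared by a two-sided exact permutation test with Benjamini-Hochberg adjustment. Values in every list were given for genes with a position in all 3 lists of a line, genes whose lists do not overlap, the 10 with most positions, LHY and CCA1. Further genes were named by role, after their values were seen. The members and lists were chosen with earlier results of these data known. Alternatives were a stricter p-value, removal of CT runs, each landscape left out, a 25% length window, genes of like CG number, positions within 50 bp, counts as shares of a list and landscape as a block. Python 3.11.15 with numpy 2.4.6 and pandas 2.3.3 was used, and counting was tested on simulated data.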

Additional observations from a re-analysis of the deposited data

How the results depend on the processing

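At p-values of at most 0.005, the genes with a DMC fell from 24 to 11 in CVL39 and from 15 to 6 in CVL125, CG DMCs per 1000 CG cytosines were 0.972 and 0.567, the ratio to genes of like length was 2.08 and 1.07, flank DMCs were 0 in CVL39, 1 gene of the second list had a CVL39 DMC, and 2 genes (PHYA and ZTL) were higher in CVL39 without overlap. With CG DMCs and genes of like CG number the ratios were 1.55 and 1.01, so the CVL125 ratio moved from below to just above 1 under these settings, while CVL39 stayed above 1. The ratio without PHYA, 1.18 in CVL39, was chosen after seeing the data, as were the alternatives for the exon share and the second list. With counts as shares of a list, SPA2 became the 1 gene higher in CVL125 without overlap, through 1 call in each of the landscape 6 lists, which differ in size. With a landscape left out, when fewer lists had to be separated or shared by construction, 3 to 4 genes, PHYA each time, were higher in CVL39 without overlap (3, 4 and 3 without landscapes 1, 5 and 6) and 0 to 2 in CVL125 (2, 0 and 2). Then 4 to 6 genes had a position in every remaining CVL39 list (6, 4 and 5) and 1 to 4 in every remaining CVL125 list (1, 1 and 4). For none of these counts of genes, at any alternative setting, is the share over all protein-coding genes given. They therefore show only how the counts move and cannot be read against a background. Of 92 alternative values, 71 stayed within 1.5 times a count or 1 SD of a mean. For the 12 genes chosen by rule, 57 of 60 values did, and the sign of the line difference changed in 2 (TIC and RVE1). Some of these values were fixed in advance. Removal of CT runs could not change the gene-body counts, as none of the positions lay in one, and CCA1 had no call to lose. The totals of unchanged values are therefore no measure of robustness. Landscapes of the same number did not deviate together (correlations of -0.0058, 0.0251 and 0.0446), and with landscape as a replicate block, 1 gene (PHYA) was higher in CVL39 and 0 in CVL125 in every landscape. The unknown depth of each cytosine limits all counts of 0.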
